A study of Mus musculus with 8 samples.

Results

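The genes described here are 10 markers of the cell states that pluripotent cells pass into: Fgf5, Otx2 and Pou3f1 for the formative and primed epiblast, T, Eomes and Mixl1 for the primitive streak and mesoderm, and Gata4, Gata6, Sox17 and Foxa2 for endoderm. They were chosen by symbol, and all 10 were found among the 24542 genes of each count table. Of the 10, 9 had at least 20 reads over the 8 samples and were tested, and Foxa2, with 8 reads in all, was not.

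RNA-seq was performed on TX1072, a female hybrid (C57BL/6 x castaneus) mouse embryonic stem cell (ESC) line in which doxycycline (DOX) switches on Xist from its own locus on the C57BL/6 (B6) X chromosome, as a system for studying X chromosome inactivation. WT (unedited TX1072) and Hdac3-/- cells, the latter 2 clones in which CRISPR/Cas9 deleted exons of Hdac3, were each sampled without DOX (0 hr) and after 24 hr in 1 µg/ml DOX, with 2 samples in each of the 4 groups. All cells were grown on gelatin in serum with LIF and both kinase inhibitors of 2i medium (an ERK pathway inhibitor and a GSK3 inhibitor). The labels do not say which clone carries which replicate number, and the WT samples came from a single line, so the effect of losing Hdac3 and any difference between clones and parental line cannot be told apart. The paper states that 1 of its 2 mutant samples in chromatin profiling held some XO cells, which carry a single X chromosome. Whether an RNA sample held such cells was not tested. HDAC3 is a histone deacetylase that works in the NCoR/SMRT corepressor complex.

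Mouse ESCs in 2i with LIF hold a naive state that resembles the epiblast before implantation. On the way to gastrulation the epiblast turns on Fgf5, Otx2 and Pou3f1, and Wnt and Nodal signals then induce T, Eomes and Mixl1 in the primitive streak, from which mesoderm and definitive endoderm arise. Gata6, Gata4 and Sox17 also mark the primitive endoderm, which separates from the epiblast in the blastocyst, and naive cultures are known to express these genes at low levels or in few cells.

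Each sample had between 6940375 and 17125156 reads assigned to genes, and replicates differed beyond sampling noise in every group. Hdac3 was read at 37.7 to 42.9 CPM (reads of a gene scaled to the library size after TMM normalization) in the WT samples and at 5.54 to 7.47 CPM in the Hdac3-/- samples, and Xist rose with DOX in WT from 10.2 and 7.15 CPM to 1698 and 1718 CPM. The ESC identity of all 8 samples was seen in the core pluripotency genes, with Pou5f1 between 466 and 589 CPM and Sox2 between 333 and 398 CPM. The naive genes Nanog, Esrrb and Zfp42 were at 949 to 1643, 594 to 753 and 212 to 392 CPM. Fibroblast markers, which feeder cells would bring, summed to 40.7 to 60.0 CPM in WT and 29.1 to 40.6 CPM in Hdac3-/- samples over 8 genes. Nearly all of this came from Col1a1 and Thy1, and Col3a1 and Postn had 0 reads in every WT sample. Between 2 and 5 of the 8 fibroblast genes were at 0 in a sample, none of the 3 tested was called between the genotypes at either time, and their part in the results below was not tested.

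The 10 markers together took 0.00670% to 0.0111% of the reads of a sample. The reads were unevenly spread, with 94.9% of them on T, Pou3f1, Eomes and Otx2, and 73.2% on T and Pou3f1 alone. To compare levels between genes, reads were divided by exon length and given as length-scaled levels (TPM). At 0 hr in WT the order of mean TPM levels was T (74.8 ± 41.4), Pou3f1 (25.5 ± 6.92), Otx2 (8.20 ± 3.86), Eomes (6.88 ± 1.57), Mixl1 (3.67 ± 2.02), Gata4 (1.46 ± 0.324), Sox17 (0.734 ± 0.150), Fgf5 (0.523 ± 0.231), Foxa2 (0.374 ± 0.187) and Gata6 (0.270 ± 0.00880; SD, n = 2 each). Along this order the replicate ranges of Otx2 and Eomes overlapped, as did those of each neighbouring pair among Sox17, Fgf5, Foxa2 and Gata6, so these neighbours are not ordered by the data. In Hdac3-/- cells at 0 hr T (81.3 ± 22.2 TPM) and Pou3f1 (14.9 ± 0.853 TPM) were again at the top, and Sox17 (0.0973 ± 0.0496 TPM) and Foxa2 (0.0626 ± 0.0886 TPM) at the bottom (SD, n = 2).

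**Figure D1:**
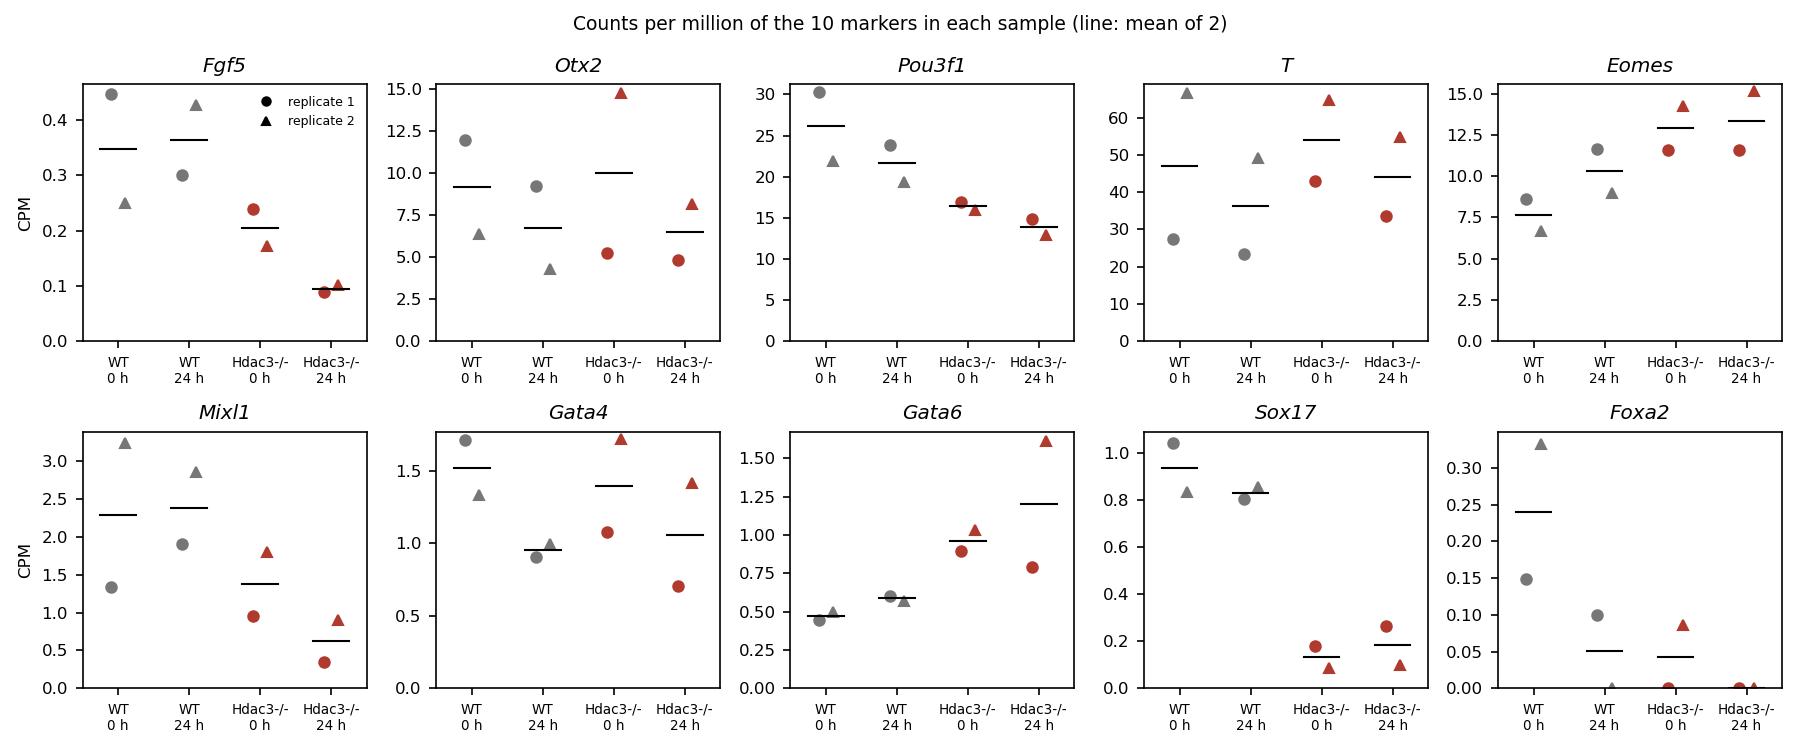
CPM (vertical axis, linear and from 0 in each panel) of the 10 markers in the 8 samples, with circles for replicate 1, triangles for replicate 2, grey for WT, red for Hdac3-/- and a line for the mean of 2. Pou3f1 lies between 19.4 and 30.3 CPM in WT and between 12.9 and 16.9 CPM in Hdac3-/- samples, while the T samples of one group differ by up to 2.44-fold.

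The main comparison asked whether loss of Hdac3 changed the expression of these markers before Xist was induced. The 4 samples at 0 hr were compared by quasi-likelihood fits in edgeR, adjusted over 15141 genes by the Benjamini-Hochberg procedure. Of the 9 tested markers 1 passed an adjusted p of 0.05, against 12.4% of all genes tested, or 1871 genes (5.73% higher and 6.63% lower in Hdac3-/-). That marker was Pou3f1, which was lower in Hdac3-/- cells. The median log2 fold change of the 9 markers was -0.16, against 0.01 over all genes tested, with 4 of 9 above 0. The number of markers called rested on single libraries and changed with the sample left out. The number of all genes called changed as well, so this is not particular to the markers.

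At 24 hr of DOX, 0 of 9 markers passed in the same test, against 9.6% of all genes (4.54% higher and 5.06% lower). At an unadjusted p under 0.05 there were 3 of 9 markers (Pou3f1, Mixl1 and Sox17), against 3843 of the 15141 genes, and DESeq2 and voom with limma also called 0. With either Hdac3-/- sample left out, more markers were called, and so were more of all genes. Over both times, 4 of the 9 tested markers had all 4 Hdac3-/- samples on one side of all 4 WT samples in CPM: Fgf5, Pou3f1 and Sox17 were lower and Gata6 was higher. Of all genes tested, 31.8% were separated in this way (16.0% lower and 15.8% higher), so that the share among the markers is near the background.

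**Figure D2:**
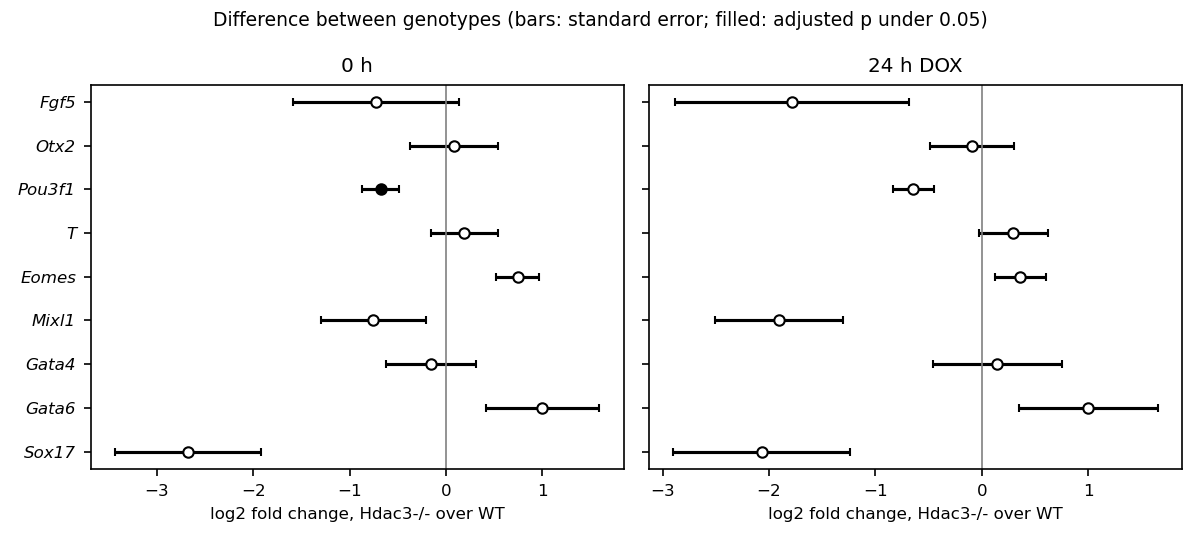
Log2 fold change of Hdac3-/- over WT (horizontal axis) for the 9 tested markers at 0 hr (left) and 24 hr of DOX (right) from edgeR, with standard errors as bars and filled points for an adjusted p under 0.05. Pou3f1 at 0 hr is the filled point, and the bars of the low-count genes Fgf5 and Sox17 are among the widest.

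Among the epiblast markers, Pou3f1 (chr4:124656807-124660655, plus strand, mm10), which encodes the POU factor OCT6 of the formative epiblast and later neural lineages, was the clearest. At 0 hr its levels were 30.3 and 21.9 CPM in WT and 16.9 and 15.9 CPM in Hdac3-/- cells, and at 24 hr 23.9 and 19.4 CPM in WT and 14.9 and 12.9 CPM in Hdac3-/- cells. Every Hdac3-/- sample was thus below every WT sample. The fall at 0 hr was 1.60-fold (log2 fold change -0.68, SE 0.19, edgeR adjusted p = 0.0494), and the fitted difference at 24 hr was -0.64 on the log2 scale (SE 0.19, edgeR adjusted p = 0.071). The call at 0 hr stood close to the threshold: adjusted p was 0.0545 with voom and limma, 0.0524 after a filter on TPM above 1, and 0.415 without WT replicate 1, where the log2 fold change was -0.42.

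Otx2 (chr14:48657677-48673819, minus strand), a homeobox factor that directs cells from the naive to the formative state and later patterns the forebrain, showed no common direction. At 0 hr it was at 11.97 and 6.40 CPM in WT and at 5.25 and 14.8 CPM in Hdac3-/- cells. At 24 hr it was at 9.22 and 4.28 CPM in WT and at 4.84 and 8.17 CPM in Hdac3-/- cells. The genotypes overlapped at both times, and the log2 fold changes were 0.09 (SE 0.46) and -0.09 (SE 0.40), with adjusted p of 0.928 and 0.918 in edgeR. In WT replicate 2 was at 0.534 and 0.464 of replicate 1, whereas in Hdac3-/- cells it was 2.81-fold and 1.69-fold above it at 0 hr and 24 hr. Without Hdac3-/- replicate 1 the difference at 0 hr was 0.67 on the log2 scale (edgeR adjusted p = 0.0257), and without Hdac3-/- replicate 2 it was -0.82 (edgeR adjusted p = 0.0244), so that its direction followed the sample left out.

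Fgf5 (chr5:98254184-98277030, plus strand), a secreted growth factor that is the classical marker of the primed epiblast, was near the lower limit of detection. It had 6 and 3 reads in the WT samples at 0 hr, 4 and 2 in the Hdac3-/- samples, and at 24 hr 3 and 3 against 1 and 1. A count of 3 reads corresponds to 0.179 to 0.428 CPM in these libraries. The CPM values ran from 0.249 to 0.446 in WT and from 0.0879 to 0.239 in Hdac3-/- samples, and did not overlap. The ratio of Hdac3-/- to WT reads, scaled to library size, was 0.598 at 0 hr (exact 95% interval 0.175 to 1.88) and 0.266 at 24 hr (0.0263 to 1.49), so that a difference was not detectable at this depth. These intervals cover counting error only.

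T (chr17:8434423-8442496, plus strand), which encodes the T-box factor Brachyury, is induced by Wnt signalling through TCF/LEF factors and drives mesoderm formation. Its TPM level was the highest of the 10 markers in every sample. The 250 bases before its start are shown because T carried the most reads and is a Wnt target in cells that were grown with a GSK3 inhibitor, which activates Wnt signalling, and those of Eomes, the related T-box gene, stand beside them. Both sequences are from RefSeq (GRCm38.p6, the mm10 assembly; T at chr17:8434173-8434422 and Eomes at chr9:118477939-118478188, plus strand), 5′ to 3′, with capitals marking the letters TTCAAAG, which read CTTTGAA on the other strand, a form of the TCF/LEF motif. The RefSeq promoter table held 5 of the 10 markers.
T: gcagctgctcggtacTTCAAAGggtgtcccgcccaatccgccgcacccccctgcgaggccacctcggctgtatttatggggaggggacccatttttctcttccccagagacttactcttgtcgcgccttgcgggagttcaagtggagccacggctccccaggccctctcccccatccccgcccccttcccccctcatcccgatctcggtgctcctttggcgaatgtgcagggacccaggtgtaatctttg
Eomes: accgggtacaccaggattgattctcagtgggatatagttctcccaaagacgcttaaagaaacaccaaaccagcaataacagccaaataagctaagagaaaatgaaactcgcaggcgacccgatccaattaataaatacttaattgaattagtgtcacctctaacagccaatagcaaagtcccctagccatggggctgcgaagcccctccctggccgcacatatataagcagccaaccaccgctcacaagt

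The stretch before T held the letters once, beginning 235 bases before the start, and that before Eomes held 0 matches on either strand. Of 32851 promoter stretches of this length, 4.46% held them on either strand. A match describes the letters and does not show that a factor binds there.

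The levels of T differed more between the samples of a group than between the groups. At 0 hr T was at 27.4 and 66.8 CPM in WT and at 43.0 and 64.9 CPM in Hdac3-/- cells, and at 24 hr at 23.5 and 49.2 CPM in WT and at 33.5 and 54.9 CPM in Hdac3-/- cells. The genotypes overlapped at both times, and the log2 fold changes were 0.19 (SE 0.35) and 0.30 (SE 0.32), with adjusted p of 0.770 and 0.623 in edgeR. Without WT replicate 2, the sample with the highest level, the difference at 0 hr was 0.97 (edgeR adjusted p = 0.0362), without WT replicate 1 it was -0.32, without Hdac3-/- replicate 1 it was 0.47 (edgeR adjusted p = 0.00627) and without Hdac3-/- replicate 2 it was -0.13. Without Hdac3-/- replicate 1 the difference at 24 hr was 0.63 (edgeR adjusted p = 0.00621), and without any other single sample it lay between -0.16 and 0.91 and did not pass.

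Eomes (chr9:118478212-118486132, plus strand), a T-box factor required for the primitive streak, definitive endoderm and trophoblast, was at 8.63 and 6.65 CPM in WT and at 11.6 and 14.3 CPM in Hdac3-/- cells at 0 hr. At 24 hr it was at 11.6 and 8.98 CPM in WT and at 11.6 and 15.1 CPM in Hdac3-/- cells. WT replicate 1 and Hdac3-/- replicate 1 had nearly the same level at 24 hr. The log2 fold changes of 0.74 (SE 0.23, edgeR adjusted p = 0.0653) at 0 hr and 0.36 (SE 0.24, edgeR adjusted p = 0.383) at 24 hr did not pass. Without Hdac3-/- replicate 1 the value at 0 hr was 0.89 (edgeR adjusted p = 0.00285). It did not pass without WT replicate 1 (0.95, edgeR adjusted p = 0.12), WT replicate 2 (0.57, adjusted p = 0.359) or Hdac3-/- replicate 2 (0.59, adjusted p = 0.0793).

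Mixl1 (chr1:180693043-180697034, minus strand), a homeobox factor of the streak and of mesendoderm, was at 1.34 and 3.24 CPM in WT and at 0.954 and 1.80 CPM in Hdac3-/- cells at 0 hr. At 24 hr it was at 1.91 and 2.85 CPM in WT and at 0.352 and 0.908 CPM in Hdac3-/- cells. The log2 fold changes were -0.76 (SE 0.54, edgeR adjusted p = 0.410) and -1.90 (SE 0.60, edgeR adjusted p = 0.0821). The lowest Mixl1 value stands on 4 reads, and without Hdac3-/- replicate 2 the value at 24 hr was -2.69 (edgeR adjusted p = 0.00513). It did not pass without Hdac3-/- replicate 1 (-1.34, edgeR adjusted p = 0.107), WT replicate 1 (-2.18, adjusted p = 0.159) or WT replicate 2 (-1.60, adjusted p = 0.404).

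The endoderm markers were scarce. Sox17 (chr1:4490931-4497354, minus strand), an HMG-box factor of primitive and definitive endoderm, had the widest separation. It was at 1.04 and 0.831 CPM in WT and at 0.179 and 0.0859 CPM in Hdac3-/- cells at 0 hr, and at 0.802 and 0.855 CPM in WT against 0.264 and 0.101 CPM in Hdac3-/- cells at 24 hr. These levels stand on 14 and 10 reads against 3 and 1, and on 8 and 6 reads against 3 and 1. Scaled to library size, Sox17 reads were 6.69-fold lower in Hdac3-/- cells at 0 hr (exact 95% interval 2.30 to 26.5) and 4.39-fold lower at 24 hr (1.38 to 18.3). With the spread between samples included, the fitted log2 fold changes were -2.68 (SE 0.76, edgeR adjusted p = 0.0527) and -2.07 (SE 0.83, edgeR adjusted p = 0.158), which depend on the prior count at such depths. The value at 0 hr passed when all 8 samples entered 1 fit (edgeR adjusted p = 0.0315), without any filter on low counts (edgeR adjusted p = 0.0361) and without Hdac3-/- replicate 1 (-3.31, edgeR adjusted p = 0.0351). Without any other single sample of 0 hr it did not (edgeR adjusted p 0.0662 to 0.276).

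Gata6 and Gata4 are zinc finger factors, Gata6 being the factor that first commits cells to the primitive endoderm and Gata4 one that follows it. Gata6 (chromosome 18) was at 0.446 and 0.499 CPM in WT and at 0.895 and 1.03 CPM in Hdac3-/- cells at 0 hr, and at 0.602 and 0.570 CPM against 0.791 and 1.61 CPM at 24 hr. Each Hdac3-/- sample was above each WT sample, but the log2 fold changes of 1.00 at both times (SE 0.59 and 0.65) had adjusted p of 0.309 and 0.381 in edgeR. Gata4 (chr14:63198922-63271692, minus strand) was at 1.71 and 1.33 CPM in WT and at 1.07 and 1.72 CPM in Hdac3-/- cells at 0 hr, and at 0.902 and 0.998 CPM against 0.703 and 1.41 CPM at 24 hr. The Gata4 levels overlapped at both times, with log2 fold changes of -0.16 (SE 0.47) and 0.14 (SE 0.61) and adjusted p of 0.866 and 0.914 in edgeR.

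Foxa2 (chr2:148042877-148046969, minus strand), a forkhead factor of definitive endoderm, node and floor plate, had 2 and 4 reads in the WT samples at 0 hr and 0 and 1 in the Hdac3-/- samples. At 24 hr it had 1 and 0 reads in WT and 0 in each Hdac3-/- sample, where 0 reads allow a level of up to 0.264 and 0.303 CPM. The scaled ratio of Hdac3-/- to WT reads at 0 hr was 0.149 with an exact 95% interval of 0.00325 to 1.23, so that no difference could be detected. In bulk samples such as these, fewer cells that express a marker and less RNA in each cell cannot be told apart.

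The second comparison asked whether the markers changed with 24 hr of DOX, which raised Xist in WT. The Xist levels of the Hdac3-/- samples are not given here. In WT, 0 of 9 markers passed in edgeR's quasi-likelihood test over all 8 samples, without the replicate number in the fit, against 0.178% of all genes (27 genes). In Hdac3-/- cells 0 of 9 passed against 0.0198% of all genes (3 genes), and the change with DOX differed between genotypes for 0 of 9 markers and 0% of genes. In each of these 3 tests 0 markers had an unadjusted p under 0.05, and DESeq2 and voom with limma called 0 as well. Of the 15141 genes, 1050 in WT, 303 in Hdac3-/- cells and 294 for the difference between the genotypes had an unadjusted p under 0.05, and DESeq2 called 1 gene for the difference. The log2 fold changes in WT lay between -0.68 for Gata4 (SE 0.51) and 0.44 for Eomes (SE 0.24), and in Hdac3-/- cells between -1.11 for Mixl1 (SE 0.67) and 0.40 for Sox17 (SE 0.88). Pou3f1 gave -0.27 (SE 0.19) in WT and -0.24 (SE 0.19) in Hdac3-/- cells, and T gave -0.39 (SE 0.46) and -0.29 (SE 0.44). For both replicate numbers of each genotype T was lower at 24 hr than at 0 hr, an order whose share of all genes was not counted. The call of T depended on whether the replicate number entered the fit. With it as a block, T passed in WT (-0.35, edgeR adjusted p = 0.00473), as did 1548 of 15141 genes. In Hdac3-/- cells T passed with the block (-0.30, edgeR adjusted p = 0.0275), as did 256 genes. Whether the numbers pair the samples could not be settled. The standard errors of the low markers reached 0.95, for Fgf5 in Hdac3-/- cells, so that changes of this size on the log2 scale were not detectable at this depth.

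The order of the samples within a group differed from marker to marker. T and Mixl1 were higher in replicate 2 than in replicate 1 in all 4 groups, with T 2.44-fold and 2.1-fold higher in WT and 1.51-fold and 1.64-fold higher in Hdac3-/- cells at 0 hr and 24 hr. For Mixl1 the same ratios were 2.42, 1.5, 1.89 and 2.58. Of all genes tested, 15.4% were higher in replicate 2 in all 4 groups. Pou3f1 was lower in replicate 2 in all 4 groups, as were 16.7% of all genes. Otx2 and Eomes were lower in replicate 2 at both times in WT and higher in it at both times in Hdac3-/- cells, an order that 7.28% of all genes showed. In WT, all 10 of 10 Wnt/beta-catenin target genes were higher in replicate 2 at 0 hr and at 24 hr, with a median log2 ratio of 0.80 and 0.71, against 0.00 and -0.01 over all genes. The Wnt targets Sp5 (69.9 and 155 CPM) and Axin2 (116 and 216 CPM), both feedback regulators of the pathway, had the same order as T in the WT samples at 0 hr. In Hdac3-/- cells 5 of 10 Wnt targets at 0 hr and 7 of 10 at 24 hr were higher in replicate 2. The part of Wnt signalling in the spread of T was not tested. Of the 9 tested Nodal/Smad2 pathway genes, 8 at 0 hr and 9 at 24 hr were higher in replicate 2 in Hdac3-/- cells (median log2 ratio 0.40 and 0.76), and 5 at each time in WT (0.02 and 0.00). Of all 15141 genes tested, 7564 at 0 hr and 7244 at 24 hr were higher in replicate 2 in WT. In Hdac3-/- cells 7408 and 7380 were.

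**Figure D3:**
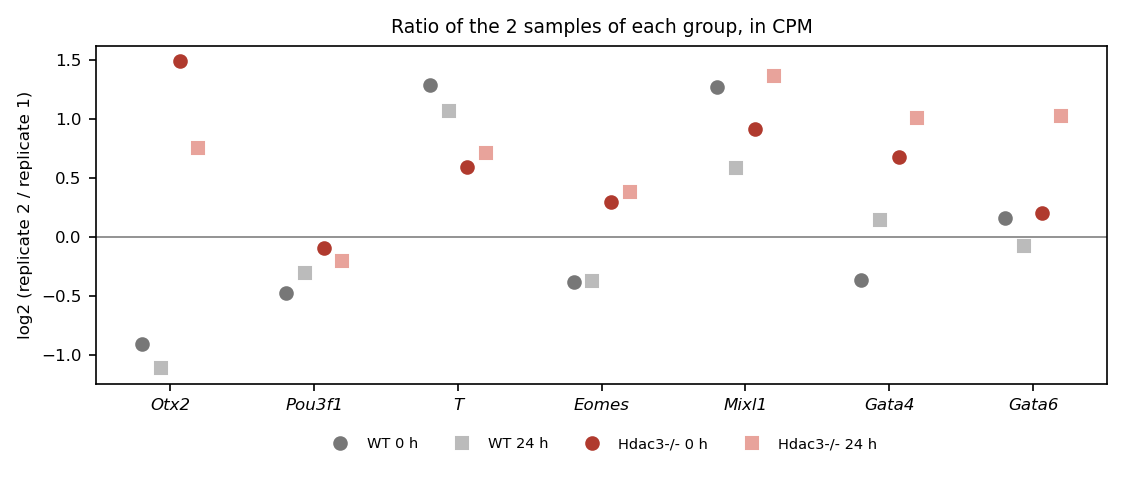
Log2 ratio of replicate 2 to replicate 1 in CPM (vertical axis) for the 7 markers with more than 3 reads in every sample, with circles for 0 hr, squares for 24 hr, grey for WT and red for Hdac3-/-. T and Mixl1 lie above 0 in all 4 groups, Pou3f1 below 0, and Otx2 and Eomes below 0 in WT and above 0 in Hdac3-/- cells.

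Because the cells are hybrids, reads over a sequence variant could be assigned to the B6 or the castaneus (Cast) allele. The share of B6 among these reads had a median between 50.1% and 50.7% over 9148 autosomal genes in a sample. Enough reads, at least 10 in each sample, were available for 4 markers (Otx2, Pou3f1, T and Eomes), and this comparison was added after the allele counts had been seen.

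T was expressed mainly from the Cast allele. In WT the B6 share was 18.2% of 258 reads (exact 95% interval 13.7 to 23.5) and 22.8% of 565 (19.4 to 26.5) at 0 hr, and 23.1% of 156 (16.7 to 30.5) and 25.9% of 263 (20.7 to 31.6) at 24 hr. In Hdac3-/- cells it was 31.6% of 522 reads (27.6 to 35.8) and 32.2% of 531 (28.2 to 36.4) at 0 hr, and 37.2% of 261 (31.3 to 43.3) and 34.5% of 386 (29.7 to 39.4) at 24 hr. All 4 Hdac3-/- samples were above all 4 WT samples, as were those of 3.94% of 9595 genes. In CPM, the B6 reads of T were at 3.5 and 10.7 in WT and at 9.84 and 14.7 in Hdac3-/- cells at 0 hr, and the Cast reads at 15.7 and 36.2 against 21.3 and 30.9.

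In an edgeR fit of both alleles, T was 1 of 4 markers called at 0 hr, against 0.667% of all genes (64 genes), with the B6 to Cast ratio 1.75-fold higher in Hdac3-/- cells (log2 0.81, SE 0.18, edgeR adjusted p = 0.0444). At 24 hr 0 of 4 were called against 1.07% of all genes, and T gave 0.75 (SE 0.21, edgeR adjusted p = 0.118), with 2 of 4 markers (T and Eomes) at an unadjusted p under 0.05, against 885 of 9595 genes. The call at 0 hr was lost with only the 4 samples of that time (edgeR adjusted p = 0.0996). It was also lost without either WT sample at 0 hr (0.426 without replicate 1 and 0.166 without replicate 2), without either WT sample at 24 hr (0.0766 and 0.0877) and without either Hdac3-/- sample at 0 hr (0.0663 and 0.154), while the log2 ratio stayed between 0.66 and 1.07. The median B6 share of 25 other genes within 5 Mb of T on either side was 47.2% to 51.5% in WT and 47.5% to 49.5% in Hdac3-/- samples.

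Otx2 reads were almost all from the Cast allele in both genotypes. The B6 share was 12.5% of 80 reads and 6.06% of 33 in WT at 0 hr, and 12.5% of 48 and 8.70% of 23 at 24 hr. In Hdac3-/- cells it was 0 of 40 reads, which allows a share of up to 7.5%, and 9.68% of 93 at 0 hr, and 16.0% of 25 and 11.9% of 42 at 24 hr. The share pooled over the 8 samples was 9.90%, and 0.579% of the 9148 autosomal genes had a lower one. The 35 other genes within 5 Mb of Otx2 had medians between 46.5% and 48.9% in the 8 samples. The genotypes overlapped, with log2 ratios of -0.71 (SE 0.77) and 0.31 (SE 0.88) at 0 hr and 24 hr and adjusted p of 0.855 and 0.963 in edgeR.

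Pou3f1 had few reads over variants, 16 to 49 a sample, and B6 shares of 11.8% to 33.3% in WT and 21.6% to 41.2% in Hdac3-/- samples, which overlapped. Eomes was closer to balance, with 40.9% to 56.8% in WT and 33.3% to 44.0% in Hdac3-/- samples over 22 to 75 reads. The edgeR log2 ratio of Eomes between genotypes was -0.19 (SE 0.44, adjusted p = 0.95) at 0 hr and -1.07 (SE 0.46, adjusted p = 0.477) at 24 hr.

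**Figure D4:**
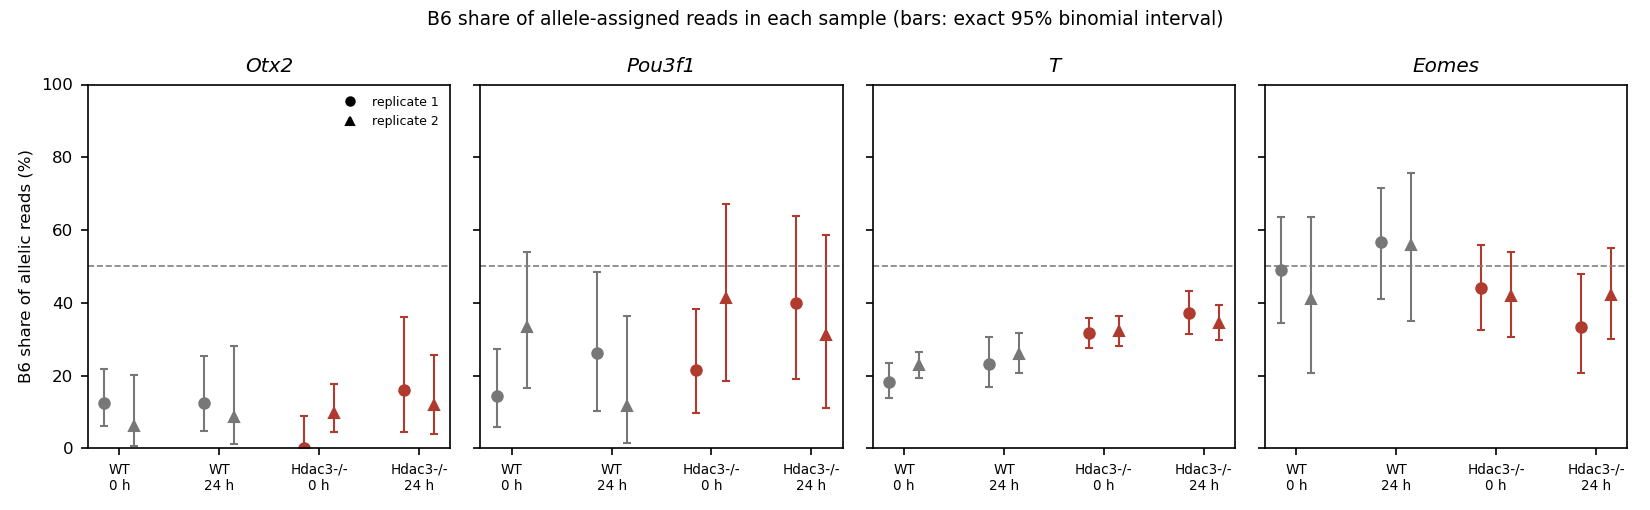
Percentage of allele-assigned reads from B6 (vertical axis, 0 to 100) for Otx2, Pou3f1, T and Eomes in each sample, with exact 95% binomial intervals as bars, circles and triangles for replicates 1 and 2, and a dashed line at 50%. The T shares lie at 18.2% to 25.9% in WT (grey) and 31.6% to 37.2% in Hdac3-/- samples (red), and those of Otx2 at or below 16.0% throughout.

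The markers were then set beside other genes of the same states, counted at 0 hr, where 5.73% of all genes tested were higher and 6.63% lower, with a median log2 fold change of 0.01. These counts were not tested as groups. Of 22 further formative and primed epiblast genes, all tested, 5 were lower and 1 higher in Hdac3-/- cells (median log2 fold change -0.23). The lower ones were led by Sall3, a zinc finger factor (120 and 103 CPM in WT, 36.6 and 35.9 CPM in Hdac3-/-, log2 fold change -1.63, edgeR adjusted p = 0.000236), Cdh2, which encodes N-cadherin (35.2 and 44.1 against 9.19 and 10.6 CPM, -2.01, edgeR adjusted p = 0.000441), and Lef1, a Wnt effector (64.2 and 109 against 20.8 and 28.1 CPM, -1.83, edgeR adjusted p = 0.00273). The de novo DNA methyltransferase gene Dnmt3b fell as well (132 and 140 against 84.9 and 89.5 CPM, -0.65, edgeR adjusted p = 0.00520), and the remaining calls were Sox11 (lower) and Foxd3 (higher). Of the 22 listed genes 16 were not called.

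Of 20 further streak and mesoderm genes, 12 were tested, 2 were higher and 1 was lower (median 0.92). Cdx1, a caudal homeobox factor, was at 67.6 and 112 CPM in WT and 331 and 233 CPM in Hdac3-/- cells (log2 fold change 1.65, edgeR adjusted p = 0.00347). Nkx1-2, a homeobox gene of the tail-end streak, was at 7.51 and 14.2 against 27.0 and 35.0 CPM (1.51, edgeR adjusted p = 0.00998). Evx1, an even-skipped homeobox gene of the posterior streak, was at 5.28 and 6.48 against 0.597 and 1.20 CPM (-2.76, edgeR adjusted p = 0.00412). Mesp1, which marks the earliest cardiac mesoderm, had no reads in any sample. Of the 12 tested genes 8 had a positive log2 fold change, and 9 were not called, as T, Eomes and Mixl1 were not.

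Of 10 Wnt/beta-catenin target genes, which include Cdx1 and Nkx1-2, 2 were higher and 3 lower (median 0.05). The lower ones were Lef1, Notum, which encodes a secreted Wnt inhibitor (44.5 and 50.9 against 11.7 and 19.8 CPM, edgeR adjusted p = 0.00340), and Sp5 (69.9 and 155 against 31.1 and 37.4 CPM, edgeR adjusted p = 0.00959). Of 9 tested genes of the Nodal/Smad2 pathway, which induces Eomes and Mixl1 in the embryo, 4 were lower and 0 higher (median -0.07). They were the Nodal antagonists Lefty1 (31.6 and 31.3 against 1.67 and 3.78 CPM, edgeR adjusted p = 0.000381) and Lefty2 (294 and 288 against 41.9 and 114 CPM, edgeR adjusted p = 0.0107), the TGF-beta family gene Gdf3 (129 and 141 against 75.2 and 80.9 CPM, edgeR adjusted p = 0.00272) and the Nodal co-receptor gene Tdgf1 (205 and 167 against 48.0 and 88.1 CPM, edgeR adjusted p = 0.00663). Nodal itself was at 37.6 and 43.6 against 48.3 and 62.1 CPM and was not called at 0 hr (edgeR adjusted p = 0.102). At 24 hr Nodal was called higher, at 40.6 and 36.6 CPM in WT against 52.0 and 65.0 CPM in Hdac3-/- cells (log2 fold change 0.60, edgeR adjusted p = 0.0375).

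Of 25 further endoderm genes, 22 were tested, 4 were lower and 1 was higher (median -0.03). The lower ones were Lamb1, a laminin chain (61.0 and 66.0 against 21.5 and 19.7 CPM), the growth factor receptor gene Fgfr2 (21.9 and 21.9 against 4.83 and 3.78 CPM), the matrix protein gene Sparc and the Sox17 relative Sox7 (2.90 and 2.41 against 0.597 and 1.12 CPM, edgeR adjusted p = 0.0496), and the higher one was Dab2, an endocytic adaptor (6.99 and 7.07 against 11.8 and 18.9 CPM, edgeR adjusted p = 0.0253). Sox17 and Sox7 had lower values in both Hdac3-/- samples at 0 hr, and Gata6 and Dab2 higher ones, but Sox17 and Gata6 were not called. Uncalled genes of the list also showed such an order, as Lrp2 (lower) and Pdgfra (higher) did. The share of all genes with this order at 0 hr alone was not counted. Over both times 31.8% of all genes tested were separated by genotype, so the order was not read as a result about these genes. The serum protein genes Afp and Ttr, which mature visceral endoderm expresses, had 0 reads in every WT sample. Ttr had none in the Hdac3-/- samples either. Afp had 5 reads in all, in Hdac3-/- replicate 2 (0.344 CPM at 0 hr and 0.101 CPM at 24 hr).

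Of 9 tested neural ectoderm genes, 4 were lower (Gbx2, Sox1, Tubb3 and Olig2) and 0 higher, with a median of -0.95. Of 8 tested trophoblast genes Tead4 was higher and Gata2 lower (median -0.15). Among the naive pluripotency genes, 4 of 14 were higher (Tbx3, Nanog, Zfp42 and Prdm14) and 1, Dppa3, lower (median 0.00), and among 7 general pluripotency genes Sall4 was higher and Tdgf1 lower (median 0.14). Tbx3 was at 451 and 476 CPM in WT and 1157 and 1041 CPM in Hdac3-/- cells (edgeR adjusted p = 0.000243), and Dppa3 at 75.9 and 71.7 against 15.0 and 17.2 CPM (edgeR adjusted p = 0.000141).

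At 24 hr, where 4.54% of all genes tested were higher and 5.06% lower, the same lists had 5 lower and 1 higher epiblast genes, 1 lower and 2 higher streak genes, 3 lower and 2 higher Wnt targets, 4 lower and 1 higher Nodal pathway genes, and 3 lower and 1 higher endoderm genes. Of the others, 4 neural genes were lower and 0 higher, 2 naive genes were lower and 3 higher, 1 general pluripotency gene was lower and 0 higher, and 0 trophoblast genes were called.

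**Figure D5:**
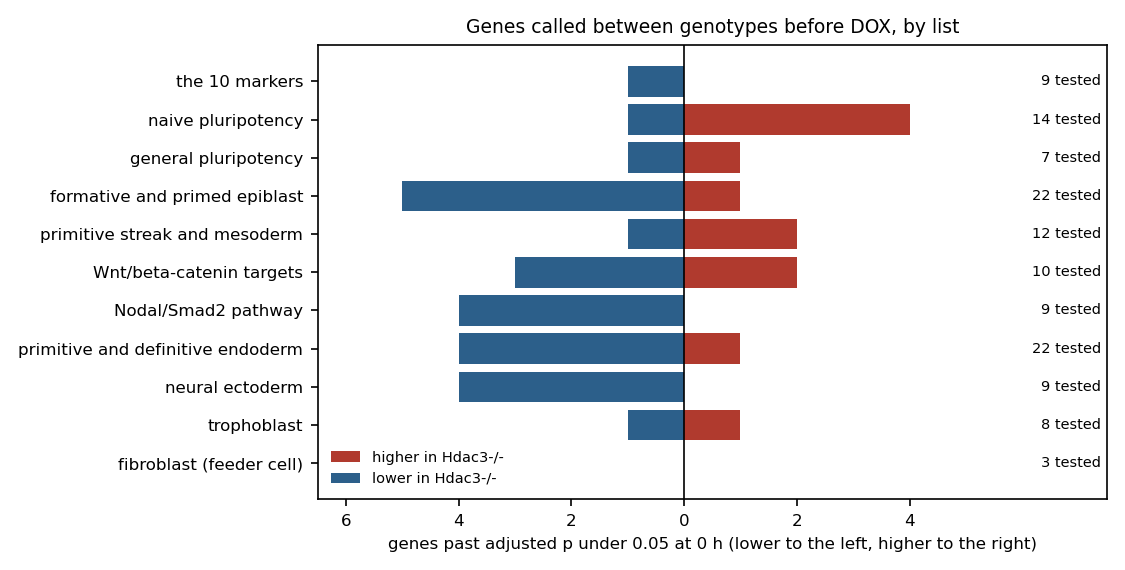
Number of genes with an edgeR adjusted p under 0.05 between Hdac3-/- and WT at 0 hr (horizontal axis, lower in Hdac3-/- to the left in blue, higher to the right in red) in the 10 markers and each other gene list, with the number tested at the right. The longest bar is that of 5 lower epiblast genes, followed by bars of 4 for the higher naive genes and for the lower Nodal, endoderm and neural genes.

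The genes whose levels followed each marker most closely over the 8 samples were found by the root mean square difference of centred log2(CPM + 0.5) values among 12766 genes. For Pou3f1 they were Apobec2 (0.065), Dnmbp (0.095) and 1300002E11Rik (0.10), and for Eomes they were Pianp (0.099), Liph (0.10) and Timm8a2 (0.11). For Gata4 they were Pla2g4c (0.083), A330023F24Rik (0.095) and Cmah (0.10). The nearest genes of T were farther off, with Rpph1 at 0.21, Ppp2r3d at 0.23 and Hist1h2aa at 0.23, as were those of Otx2, with Ttc23 at 0.27, Msln at 0.28 and Xkr6 at 0.30. The nearest gene of Mixl1 was Serpinb9 at 0.17. These are descriptions over samples that share genotype and replicate structure.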

How the data were processed

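Per the labels and the study's methods, total RNA of 8 samples was made into stranded, rRNA-depleted paired-end libraries. The authors removed rRNA reads, aligned the rest with TopHat 2.1.0 (mm10 per the submitters' processing notes) and counted reads per gene with featureCounts 1.5.1 using strand; the deposited files hold raw counts of all, B6 and Cast reads, and the B6 fraction, which was recomputed here from the counts.

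CPM used library totals times TMM factors over 15141 genes with at least 20 reads over the 8 samples; TPM used GENCODE M21 exon lengths. edgeR 4.0.16 quasi-likelihood tests compared genotypes on the 4 samples of a time (2 residual degrees of freedom) and DOX effects on all 8 (4 degrees), two-sided, called at an adjusted p of 0.05. Standard errors are the log2 fold change divided by the square root of F. The allele fit had a term per sample and a B6 term per group over 9595 genes. The study calls its samples biological duplicates, taken from 1 control line and from 2 separately derived Hdac3-/- clones; what separates the WT duplicates is not given in the sources used here, so that p-values measure only the spread between these samples, which may be technical. Named genes were all 10 markers and, of each other list, the called genes of lowest adjusted p at 0 hr (up to 4) or, with none, those with most reads; the other called genes of a list, Axin2, Nodal, Mesp1, Afp and Ttr were named after their values were seen, as were genes at 0. The markers and lists were chosen with earlier results of these data known. In data simulated for the 0 hr comparison over 15141 genes, edgeR called 56 of 100 genes changed by 1 and 81 of 100 changed by 2 on the log2 scale. It also made 16 false calls among the unchanged genes. The changed genes were drawn from all genes tested, so these counts do not describe the low-count markers. The B6 share intervals and read limits cover counting error only. Alternatives were other size factors, DESeq2 1.42.0, voom with limma, other filters, a replicate block, other sample sets and leaving out each sample.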

Additional observations from a re-analysis of the deposited data

How the results depend on the processing

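Between genotypes Pou3f1, Sox17 and Fgf5 stayed lower and Gata6 and Eomes higher at both times. This held with each sample left out and under the settings for which a value was recorded. The allele ratio of T also kept its direction. The TPM filter left out Fgf5, Sox17 and Gata6. Between genotypes DESeq2 gave no adjusted p for Fgf5 and Sox17, nor for Gata6 at 0 hr. It could therefore not call them there, and their direction under it was not recorded. With 2 samples a group and few reads on 6 of the 10 markers, depth limits the comparisons of Fgf5, Sox17, Gata4, Gata6, Mixl1 and Foxa2. The cause of a change in a call was not tested, except where fewer samples or genes entered a fit.

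Asking also for an absolute log2 fold change above 1 left 882 genes and 0 markers at 0 hr, 686 genes at 24 hr and 6 genes for DOX in WT. Without a filter on low counts, 3060 genes and 3 markers (Pou3f1, Sox17 and Eomes) were called at 0 hr, 2606 genes and 2 markers at 24 hr, 275 for DOX in WT, 36 for DOX in Hdac3-/- and 6 for the difference between them. DESeq2 called 118 genes for DOX in WT, 16 in Hdac3-/- and 1 for the difference. Voom with limma called 0 markers at 0 hr and 13 genes for DOX in WT. The TPM filter left 0 markers at 0 hr. All 8 samples in 1 fit gave 2 markers at 0 hr (Pou3f1 and Sox17), and only the 4 samples of a genotype gave 309 genes for DOX in WT and 1 in Hdac3-/-. In the allele comparison at 0 hr, only the 4 samples of that time gave 34 genes and 0 markers.

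The replicate number was also added as a block. Deviations of samples with the same number correlated over 12767 genes with r between 0.23 and 0.34 for 5 pairs of groups and 0.71 between the Hdac3-/- groups at 0 hr and 24 hr. With 2 numbers a group and no word in the labels on what they mark, whether the numbers pair the samples could not be settled, and these correlations are a hint from the data only. With the replicate block 3248 genes and 3 markers (Pou3f1, Sox17 and Eomes) were called at 0 hr and 2346 genes and 2 markers (Pou3f1 and Mixl1) at 24 hr. With the block 1548 genes and 1 marker (T, log2 fold change -0.35, edgeR adjusted p = 0.00473) were called for DOX in WT, 256 genes and 1 marker (T, -0.30, edgeR adjusted p = 0.0275) in Hdac3-/- and 243 genes for the difference. In the allele comparison the block gave 206 genes at 0 hr, and 249 genes and 1 marker (T) at 24 hr.

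The sign turned for Otx2 at 0 hr (-0.13 with voom and limma, -0.0061 with the replicate block), for its DOX difference between genotypes (0.020 with voom and limma) and for its allele ratio at 24 hr (-0.49 with the block), for Fgf5 with DOX in WT (-0.0024 with the block) and for the DOX difference of Gata6 (0.0074 with DESeq2 size factors, 0.011 with DESeq2), all near 0 or on few reads. Of the 40 mean CPM levels, 1 moved by more than 1 SD without the TMM factor and 6 without the reads of Rn45s, a ribosomal RNA gene, in the library size.

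Leaving out 1 sample gave 840 (without WT replicate 2) to 3545 genes (without Hdac3-/- replicate 1) and 0 to 5 markers at 0 hr, 621 (without WT replicate 1) to 3747 genes (without Hdac3-/- replicate 2) and 0 to 2 markers at 24 hr, 2 to 69 genes for DOX in WT, 2 in Hdac3-/-, and in the allele comparison 12 to 121 genes and 0 to 1 markers at 0 hr and 23 to 133 genes at 24 hr. It turned the sign of 26 log2 values, none of them called with all samples. Between genotypes at 0 hr they spanned -0.82 to 0.67 for Otx2, -0.32 to 0.97 for T, -1.26 to 0.011 for Mixl1 and -0.51 to 0.17 for Gata4, and at 24 hr -0.53 to 0.60 for Otx2, -0.16 to 0.91 for T and -0.42 to 0.58 for Gata4. For DOX in WT they spanned -1.11 to 0.10 for Otx2, -1.0 to 0.39 for T, -0.46 to 0.81 for Mixl1 and -0.32 to 0.50 for Fgf5. For DOX in Hdac3-/- they spanned -1.19 to 0.30 for Otx2, -0.68 to 0.038 for T, -0.15 to 0.24 for Eomes, -0.95 to 0.045 for Gata4, -0.27 to 0.75 for Gata6 and -0.42 to 1.03 for Sox17. For the DOX difference they spanned -0.77 to 0.73 for Otx2, -0.68 to 0.71 for T, -0.22 to 0.25 for Pou3f1, -0.26 to 0.74 for Gata4, -0.57 to 0.45 for Gata6 and -0.23 to 1.22 for Sox17. For the allele ratio at 0 hr they spanned -4.70 to 0.083 for Otx2, -0.33 to 1.34 for Pou3f1 and -0.35 to 0.12 for Eomes.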
